A study of Mus musculus with 9 samples.

Results

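Hoxa13 core sites are the places where the homeodomain protein Hoxa13 was found on the chromatin of mouse limb tissue at E11.0, E11.5 and E12.5, where E stands for embryonic day. A site was taken as a Hoxa13 peak of the E11.5 list that shared at least 1 bp with a peak of the E11.0 list and at least 1 bp with a peak of the E12.5 list. This gave 13767 sites out of 143460 E11.5 peaks, or 9.60% of that list, and out of 243649 peaks in the 5 lists of the series. The peak lists themselves chose the sites, so their number and their recurrence are a description and carry no test.

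Hox proteins bind short AT-rich sequences through the homeodomain and set the identity of body segments. Hoxa13, at one end of the HoxA gene cluster, is expressed in the distal limb and is needed for the autopod, the future hand and foot. Hoxa11, from the neighbouring position of the same cluster, is known for its role in the zeugopod, the forearm and lower leg, and the domains of both proteins separate along the limb as the digits form.

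All embryos were wild type on the ICR background. Hoxa13 was immunoprecipitated at E11.0 from the autopod, pooled from 11 pairs, at E11.5 from whole limb buds of a litter, and at E12.5 from limb buds by an earlier published procedure that also differed in library preparation. Hoxa11 was immunoprecipitated from E11.5 limb buds in replicates 1 and 2. Both antibodies were home-made, and 10 µg of anti-Hoxa13 or 8 µg of anti-Hoxa11 was used per experiment at E11.0 and E11.5. There were 9 libraries, of which 4 were input DNA with no list analysed here. Each Hoxa13 stage had 1 library, so no difference between stages has a replicate check, and stage, dissected tissue and protocol cannot be told apart. By its title, 1 input library served both Hoxa13 at E11.5 and Hoxa11 replicate 1. The sources used here give no read depth. Positions are 1-based in mm9. A 95% interval is an exact Clopper-Pearson interval for a share, Newcombe's interval for a difference of shares, or an order-statistic interval for a median. All of them cover counting error over peaks, which are not replicates. Where a count is 0, the limit given is instead 3 counts over the number of sites.

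Most core sites paired 1 peak of each stage. One peak from each of the other stages lay on 13320 of the 13767 sites (96.8%, 96.4 to 97.0), 447 sites had several partners at E11.0 or E12.5, and 54 had several at both. At most 4 E11.0 peaks and 7 E12.5 peaks fell on a single E11.5 peak. The rule did not require the E11.0 and E12.5 peaks to touch each other, but both had to meet the same E11.5 peak, which leaves little room for them to miss. A base covered by a peak of every stage lay in 13548 sites (98.4%, 98.2 to 98.6), a description that follows in large part from the rule and the widths, and 219 sites had none. In those 219 the E11.0 and E12.5 peaks lay on separate parts of the E11.5 peak, so the name of a site bound at one place at all stages does not describe them.

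The border of the rule touched few sites. Only 13 E11.5 peaks were members by a shortest overlap of 1 to 10 bp, with a median width of 339 bp. A further 12 met one outer stage and missed the other by a gap of at most 9 bp, with a median width of 306.5 bp. One of the 13 met Hoxa11 replicate 1, and none of the 12 met either Hoxa11 list. Replicate 1 met 4.51% of all core sites and 1.46% of all E11.5 peaks, so sets this small cannot be told apart by Hoxa11.

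The rule, by requiring overlap, also bounds how far apart the centres of the Hoxa13 peaks at a core site can lie. With the nearest partner taken where there were several, the E11.0 centre was a median of 39.5 bp from the E11.5 centre (38.5 to 40.0), with quartiles of 18.0 and 71.5 bp. The E12.5 centre was a median of 31.5 bp away (30.5 to 32.0), with quartiles of 14.0 and 64.5 bp. Both distances are short beside the median E11.5 width of 391 bp. E11.0 and E12.5 centres, which come from libraries that differ in stage, tissue and protocol, were a median of 44.0 bp apart (43.0 to 44.5). Both centres lay within 50 bp of the E11.5 centre at 6117 sites (44.4%), and at 653 sites (4.74%) at least one lay over 200 bp away. Neither outer stage was shifted to one side, with median signed distances of 1 bp for E11.0 and 0 bp for E12.5.

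**Figure D1:**
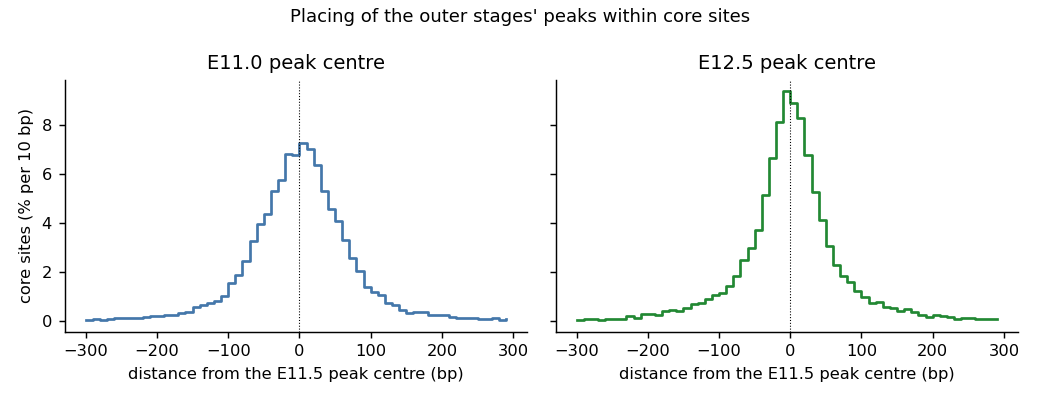
Distance of the E11.0 peak centre (left) and the E12.5 peak centre (right) from the E11.5 peak centre at 13767 core sites, as the percentage of sites per 10 bp; sites beyond 300 bp are not drawn. Both distributions peak at the E11.5 centre, with median absolute distances of 39.5 bp at E11.0 and 31.5 bp at E12.5.

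Most peaks of the outer stages lay inside the E11.5 peak. The E11.0 peak lay wholly inside the E11.5 peak at 7854 core sites (57.0%), and the E12.5 peak did so at 11910 (86.5%). The E11.0 peak was the widest of the 3 at 2438 sites (17.7%), the E11.5 peak at 11085 (80.5%) and the E12.5 peak at 202 (1.47%). The smallest width in each list was 187 bp at E11.0, 203 bp at E11.5 and 110 bp at E12.5, so the narrower E12.5 peaks belong to the whole list and not to the core alone. All 3 peaks shared a median of 163 bp, or 39.4% of the stretch they spanned together.

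Core sites were wider than the other peaks of the same list at every stage. The median width of a core site was 287 bp at E11.0 (285 to 290), against 233 bp for the other E11.0 peaks. At E11.5 it was 391 bp (388 to 393), against 278 bp for the other E11.5 peaks, and at E12.5 it was 186 bp (184 to 187), against 145 bp for the other E12.5 peaks. Peaks at the smallest width of their list made up 6.68% of core sites and 16.0% of other peaks at E11.0, 0.400% and 3.59% at E11.5, and 3.98% and 10.8% at E12.5. Width bears on the rule itself, since a wider peak is more easily met by another one, and these differences are given with no test.

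**Figure D2:**
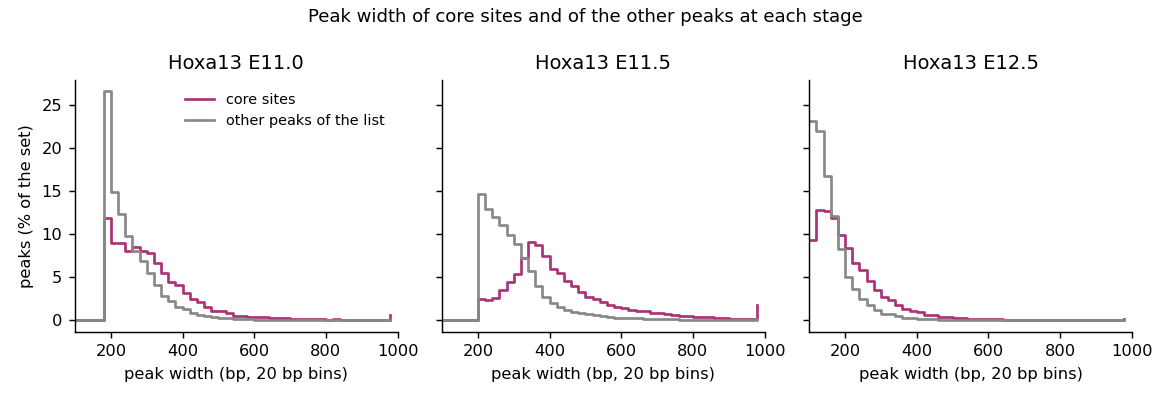
Distribution of peak width at each Hoxa13 stage, in 20 bp bins, for peaks of that list that meet both other stages (core) and for all its other peaks, as the percentage of each set; the last bin holds all peaks of 980 bp or more. Core peaks are shifted to greater width at every stage, most at E11.5, where the medians were 391 and 278 bp.

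The share of E11.5 peaks that belonged to the core rose steeply with width. In the narrowest 10% of the list, 203 to 214 bp, it was 1.60%, and in the widest 10%, 441 to 4980 bp, it was 33.5% (32.7 to 34.2). The classes shared with a single other stage changed less. Peaks that recurred only at E12.5 (17319 in all, called the late-shared class here) made up 4.99% of the narrowest 10% and 19.5% of the widest. Peaks that recurred only at E11.0 (15712, the early-shared class) made up 6.79% and 15.5%. The remaining 96662 peaks were found at E11.5 alone.

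**Figure D3:**
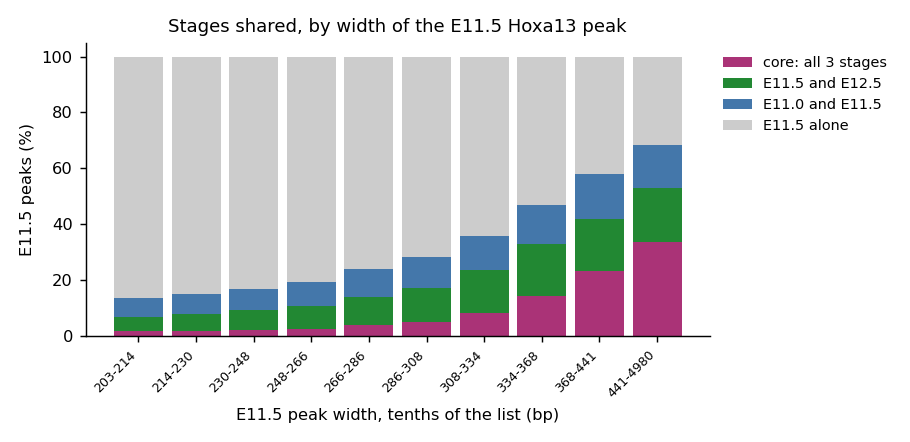
E11.5 Hoxa13 peaks in 10 classes of equal size by width (x axis, bp), each bar divided into the percentage found at all 3 stages, in the late-shared class, in the early-shared class and at E11.5 alone. The core takes 1.60% of the narrowest class and 33.5% of the widest.

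Within the core, a site that was wide at one stage was only loosely wide at another. Across the 13767 sites, which are not independent replicates, the Spearman correlation of widths was 0.30 between E11.0 and E11.5, 0.37 between E11.5 and E12.5, and 0.28 between E11.0 and E12.5. At 808 sites (5.87%) the peak was in the widest 10% of its list at every stage, and at 442 (3.21%) it was in the narrower 50% at every stage. More than 50% of the core, 7186 sites (52.2%), was in the widest 10% at no stage. Some sites were ranked in opposite ways. At 482 sites the peak was in the widest 10% at E12.5 but in the narrower 50% at E11.0, and at 518 sites the reverse held.

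Hoxa11 was not used to choose the core, and its peaks therefore give a second readout at these sites. A peak of Hoxa11 replicate 1 met 621 core sites (4.51%, 4.17 to 4.87), against 1.46% of all E11.5 Hoxa13 peaks. For replicate 2, which has an input of its own, the number was 397 (2.88%, 2.61 to 3.18), against 0.803% of all E11.5 peaks, and a peak of each replicate met 293 (2.13%, 1.89 to 2.38), against 0.587%. The core thus met Hoxa11 more often than the list as a whole, in either replicate. Of the 621 core sites with replicate 1, 601 were in the widest 25% of the list. That width class also held 9334 of all 13767 core sites and 1603 of the 2091 E11.5 peaks with replicate 1. In the widest 25% of the list, from 350 bp, 6.44% of core sites (5.95 to 6.96) and 4.49% of all peaks (4.27 to 4.71) met replicate 1. At 287 to 349 bp replicate 1 met 11 of 2721 core sites (0.404%, 0.202 to 0.722). That was below the 247 of 35874 among all peaks (0.689%, 0.606 to 0.780), with overlapping intervals. Replicate 2 met 0.404% of core sites and 0.393% of all peaks at that width. At 240 to 286 bp the core share was higher in replicate 2, 0.957% (0.460 to 1.75) against 0.234% (0.187 to 0.290). In replicate 1 it was 0.670% against 0.420% there, with overlapping intervals. At 203 to 239 bp the intervals overlapped in either replicate. Most core sites met no Hoxa11 peak of either replicate, 13042 of 13767. As a share of the shorter lists, 637 of 2953 replicate 1 peaks (21.6%, 20.1 to 23.1) and 430 of 1647 replicate 2 peaks (26.1%, 24.0 to 28.3) lay on a core site.

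Across all widths, the core and the late-shared class met Hoxa11 in shares whose difference lay within counting error. Of the late-shared class, the one most like the core, 361 of 17319 (2.08%, 1.88 to 2.31) met a Hoxa11 peak of each replicate. The core share minus this share was 0.0439 points (-0.276 to 0.369), an interval that includes 0. The early-shared class did so in 18 of 15712 cases (0.115%, 0.0679 to 0.181), and those at E11.5 alone in 170 of 96662 (0.176%, 0.150 to 0.204). Core sites were wider, however, and at like width the core share with both replicates lay below the late-shared one in value. In the widest 25% of the E11.5 list, 285 of 9334 core sites (3.05%, 2.71 to 3.42) met Hoxa11 of both replicates, against 288 of 6832 late-shared peaks (4.22%, 3.75 to 4.72). The difference was -1.16 points (-1.76 to -0.579), although the core sites there had the greater median width, 446 against 416 bp. In the next 25%, 287 to 349 bp, it was -0.612 points (-0.900 to -0.307), with 4 of 2721 core sites and 40 of 5267 late-shared peaks (0.759%). There the core share, 0.147% (0.0401 to 0.376), was also no higher than that of peaks at E11.5 alone, 0.187% (0.136 to 0.251), whereas in the widest 25% the peaks at E11.5 alone met both replicates in 0.613% (0.491 to 0.757). In the narrower 50% of the list, 203 to 239 and 240 to 286 bp, both intervals included 0. Replicate 1 alone gave -2.46 points (-3.31 to -1.63) in the widest 25% and replicate 2 alone gave -1.18 points (-1.85 to -0.526). Among the single-replicate differences by width class, only replicate 2 at 240 to 286 bp had the core higher, by 0.148 points (-0.432 to 0.985).

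Hoxa11 at core sites followed the Hoxa13 peak width at E11.5 and E12.5 more than that at E11.0. Ranked by width at E11.0, 4.10% (3.46 to 4.81) of the narrowest 25% of core sites and 6.65% (5.84 to 7.54) of the widest met Hoxa11 replicate 1, and the interval of the narrowest 25% included the 4.51% of the whole core. Ranked by width at E11.5, the shares were 0.494% (0.288 to 0.790) and 14.1% (13.0 to 15.3). Ranked by width at E12.5, they were 1.54% (1.16 to 2.01) and 12.2% (11.1 to 13.3). In replicate 2 the widest 25% by E11.0, E11.5 and E12.5 width met Hoxa11 in 5.29%, 9.01% and 8.08%, and the narrowest in 2.32%, 0.610% and 0.901%. Meeting was scored on the E11.5 peak, and a wider one is more easily met by Hoxa11 as well. How much of the E11.5 gradient comes from this was not tested.

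**Figure D4:**
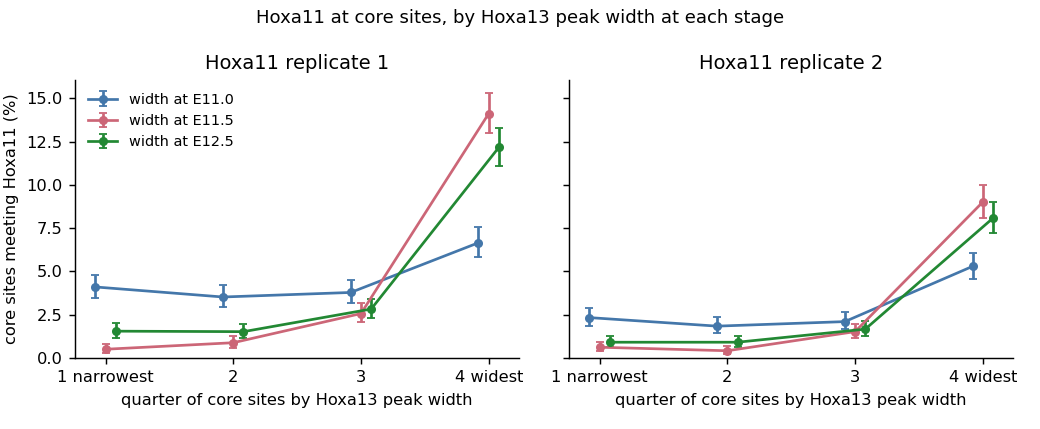
Percentage of core sites that met a Hoxa11 peak of replicate 1 (left) or replicate 2 (right), in 4 classes of equal size by Hoxa13 peak width at E11.0, E11.5 or E12.5; bars are exact 95% intervals for counting error. In replicate 1 the line for E11.0 stays between 3.52% and 6.65%, while those for E11.5 and E12.5 climb to 14.1% and 12.2%.

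The core sites with opposite ranks at the outer stages, which are part of the sites just ranked, differed in the same direction. Of the 482 sites wide at E12.5 and narrow at E11.0, 87 met Hoxa11 replicate 1 (18.0%, 14.7 to 21.8), against 13 of the 518 sites wide at E11.0 and narrow at E12.5 (2.51%, 1.34 to 4.25), a difference of 15.5 points (11.9 to 19.4). Replicate 2 gave 51 (10.6%) and 15 (2.90%), a difference of 7.69 points (4.64 to 11.0), and both replicates together gave 45 (9.34%) and 5 (0.965%). The median E11.5 width of these sets was 468.5 and 414.5 bp, and the part of E11.5 width in the difference was not tested. These sets were defined after the data had been seen. E11.0 tissue was the autopod, whereas E12.5 tissue and the Hoxa11 tissue were limb buds, so a tissue and a stage effect cannot be told apart. Core sites wide at every stage met replicate 1 in 147 of 808 cases (18.2%, 15.6 to 21.0), and those in the narrower 50% at every stage in 0 of 442, which by 3 counts allows a share of up to 0.679%.

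Core sites with Hoxa11 were wider Hoxa13 sites at every stage, and least so at E11.0. The 293 sites that met both replicates had a median Hoxa13 width of 323 bp at E11.0 (303 to 350), 726 bp at E11.5 (690 to 760) and 364 bp at E12.5 (330 to 390). The 13042 sites with no Hoxa11 peak had medians of 286, 385 and 182 bp at these stages. The intervals of these sets did not overlap at any stage, and came nearest at E11.0, 303 to 350 against 284 to 288 bp. Meeting was scored on the E11.5 peak, and a wider one is more easily met, so the E11.5 difference is in part built in.

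The position of Hoxa11 within a site is given as a description, since sites were taken because the peaks of both proteins overlap, which by itself keeps them close. Only the deposited list of replicate 2 gives a summit, and 364 core sites met exactly 1 of its peaks. The Hoxa11 summit was a median of 74.75 bp (62.5 to 81.5) from the centre of the bases common to the 3 Hoxa13 peaks, and it lay inside the E11.5 Hoxa13 peak at 343 of them (94.2%, 91.3 to 96.4). It was within 100 bp of the E11.0 centre at 58.0% of the sites, of the E11.5 centre at 55.2% and of the E12.5 centre at 64.6%. In the authors' deposited list, replicate 2 peaks on core sites had a median fold enrichment over the caller's background of 4.14 (quartiles 3.43 and 5.41, 430 peaks). Those on late-shared sites had 4.09 (448 peaks), and those with no E11.5 Hoxa13 peak had 3.43 (481 peaks), so the medians of the core and the late-shared class lay well within each other's quartiles.

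The core sites with the strongest Hoxa11, by the authors' fold enrichment in replicate 2 outside crowded windows, were wide at E11.5, from 728 to 1324 bp. The highest was the site from 6381479 to 6382802 on chromosome 3, at 17.7-fold and −log10 q of 101.4. Its nearest E11.0 peak (6381809 to 6382013, 205 bp) and nearest E12.5 peak (6382160 to 6382269, 110 bp) shared no base. The Hoxa11 summit at 6381944 fell in that E11.0 peak. The second, from 9265118 to 9265910 on chromosome 12, had 17.6-fold enrichment, and its 3 Hoxa13 peaks had 347 bp in common. The next, from 29126077 to 29126836 on chromosome 9, had 16.6-fold enrichment, a −log10 q of 163.5, the highest of the 5, and a Hoxa11 summit 39.5 bp from the common centre. The remaining ones were on chromosome 2 from 171458998 to 171459843 (12.3-fold) and on chromosome 10 from 100254799 to 100255526 (11.6-fold). All 5 met both Hoxa11 replicates, as the choice required.

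Other core sites stood out by how exactly the stages coincided. On chromosome 4 from 116286749 to 116287233, peaks of 458 bp at E11.0, 485 bp at E11.5 and 444 bp at E12.5 had 90.1% of their joint span in common. On chromosome 15 from 100477401 to 100479127 the widths were 1683, 1727 and 1514 bp and 87.7% was common. The other sites of this kind were narrower, on chromosome 13 from 77040341 to 77040543 (89.0%), on chromosome X from 132311123 to 132311404 (88.1%) and on chromosome 5 from 102060612 to 102060825 (87.4%). None of these 5 met a Hoxa11 peak of either replicate. The same held for 13042 of all 13767 core sites, so it does not set these 5 apart.

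The 5 widest core sites outside dense windows differed in how far their stages coincided, with at most 20% of the joint span in common. The E11.5 interval on chromosome 2 from 3881671 to 3885749 spanned 4079 bp, and its E11.0 partner spanned 4032 bp, but the E12.5 partner only 546 bp. On chromosome 9 from 114081695 to 114085712 the widths were 2682 bp at E11.0, 4018 bp at E11.5 and 174 bp at E12.5. On chromosome 12 from 8636928 to 8639994 and on chromosome 13 from 50442808 to 50445314 the nearest E11.0 and E12.5 peaks had no base in common. The fifth, on chromosome 9 from 122670123 to 122672486, was 2241, 2364 and 472 bp wide at the successive stages. Input was not analysed here and repeated sequence was not screened, so the part of either in such long intervals was not tested.

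Core sites were spread over all chromosomes, and a few crowded windows changed the picture for chromosome X. On the autosomes, 8.01% (chromosome 11) to 10.6% (chromosome 4) of E11.5 peaks were core, and on chromosome X 591 of 4530 were (13.0%, 12.1 to 14.1). The placed chromosomes were divided into 2651 windows of 1 Mb, and a window counts as dense where at least one Hoxa13 list has more peaks in it than the third quartile plus 3 interquartile ranges. The 26 dense windows held 707 core sites (5.14%, 4.77 to 5.52), against 1.12% of late-shared peaks, 3.59% of early-shared peaks and 0.651% of those at E11.5 alone. Outside them chromosome X had 311 core sites of 3930 peaks (7.91%, 7.09 to 8.80), below every autosome in value. Its interval overlapped those of most autosomes, such as chromosome 11 (8.01%, 7.29 to 8.78), and lay clear only of those of chromosomes 3, 7 and 12. On unplaced sequence, 190 of 590 E11.5 peaks (32.2%, 28.4 to 36.1) were core. Since dense windows were picked by Hoxa13 counts, their share of the core is a description.

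**Figure D5:**
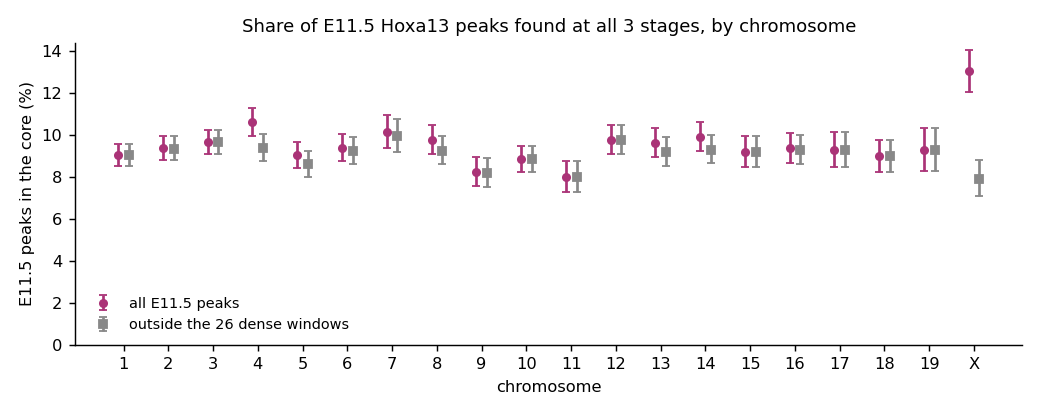
Percentage of E11.5 Hoxa13 peaks that are core sites on chromosomes 1 to 19 and X, for all peaks (circles) and outside the 26 dense windows (squares), with exact 95% intervals. Chromosome X stands at 13.0% with all peaks and at 7.91% outside the dense windows, while most autosomes move little.

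Hoxa11 was also more frequent at core sites in those places. In dense windows and on unplaced sequence, 63 of 897 core sites (7.02%) met a Hoxa11 peak of each replicate, against 230 of the remaining 12870 (1.79%, 1.57 to 2.03). Of late-shared peaks in the same places, 13.7% did so. Without those places, replicate 1 met 4.15% of core sites and replicate 2 met 2.32%, and the late-shared class met them in 4.19% and 2.37%. The contrast between sites wide at E12.5 and sites wide at E11.0 remained of like size there, with 80 of 461 (17.4%) and 8 of 435 (1.84%) in replicate 1.

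Outside dense windows core sites were spaced widely. A window of 1 Mb held a median of 4 core sites (quartiles 2 and 7), and 251 of 2625 windows held none. The richest was chromosome 15 from 15000001 to 16000000, with 24 core sites among 128 E11.5 peaks. Chromosome 3 from 46000001 and chromosome 5 from 82000001 had 22 each, chromosome 13 from 12000001 had 21 among only 70 peaks (30.0%, 19.6 to 42.1), and chromosome 10 from 102000001 had 20. In the chromosome 13 window, a run of 6 core sites spanned 18895 bp and a run of 5 spanned 18790 bp, so its sites were not evenly spread. Of the 109 core sites in these 5 windows, 3 met Hoxa11 replicate 1 (2.75%, 0.571 to 7.83), against 4.15% of all core sites outside dense windows, a value inside that interval. Another core site lay within 10 kb of 14.9% of core sites (14.2 to 15.5), against 18.0% (17.4 to 18.6) for late-shared peaks and 17.0% (16.4 to 17.7) for early-shared peaks. The core was the smallest of these classes, 12870 against 17057 and 14993 sites, and a smaller class has more distant neighbours, so these shares cannot be ranked.

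The 1 Mb windows around the Hox clusters hold few core sites each, and their counts are given as a description beside the 4.51% of all core sites that met Hoxa11 replicate 1 and the 2.13% that met both replicates. The windows were placed from general knowledge of mm9, were looked at after their values were known, and no gene annotation of mm9 was at hand, so sites are given by position and not by gene. The HoxD window, chromosome 2 from 74000001 to 75000000, held 17 core sites among 129 E11.5 peaks (13.2%, 7.87 to 20.3), and 21 of 2625 windows held as many or more. The 17 sites were 247 to 1548 bp wide at E11.5, and at 3 of them the nearest E11.0 and E12.5 peaks had no base in common. None of the 17 met a Hoxa11 peak of either replicate, which by 3 counts allows a share of up to 17.6%, so the 4.51% of all core sites that met replicate 1 lies well inside the limit. The window was not empty of Hoxa11, since 7 of its E11.5 peaks met replicate 1 and 4 met both replicates, 3 of the 4 being late-shared peaks. HoxD genes pattern both the forearm and the digits from a cluster flanked by long regulatory landscapes.

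In the HoxA window, chromosome 6 from 52000001 to 53000000, 12 of 114 E11.5 peaks were core (10.5%, 5.56 to 17.7). Of these 12, 6 met Hoxa11 replicate 1 and 4 met both replicates, out of 5 E11.5 peaks in the window that met both. The HoxA cluster encodes Hoxa13 and Hoxa11 themselves. The strongest of the 4 by the authors' fold lay from 52176151 to 52176952, at 5.80-fold, with peaks of 618 bp at E11.0, 802 bp at E11.5 and 628 bp at E12.5 and 76.7% of their span in common. Neighbouring sites lay from 52150813 to 52151311 (3.83-fold) and from 52166542 to 52167071 (3.50-fold), the second with all 3 Hoxa13 centres within 10 bp of each other. The last, from 52551370 to 52552766, was 1397 bp wide at E11.5, and its nearest E11.0 and E12.5 peaks had no base in common. A core site without Hoxa11 lay from 52207396 to 52207661, with widths of 237, 266 and 156 bp at the successive stages.

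The windows of HoxB and HoxC held 3 core sites each. On chromosome 15 of the HoxC window, the core site between 102844740 and 102845359 carried the strongest Hoxa11 among core sites of the 4 Hox windows, 11.3-fold with a −log10 q of 100.7, and the Hoxa11 summit lay 6 bp from the centre common to the 3 Hoxa13 peaks. Those peaks were 381 bp wide at E11.0, 620 bp at E11.5 and 296 bp at E12.5. In the HoxB window the site on chromosome 11 from 96142790 to 96143655 met both replicates at 3.73-fold, with widths of 651, 866 and 140 bp.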

How the data were processed

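The build is mm9 and the tools named are MACS2 2.1.0, Bowtie2 2.2.2 and CASAVA 1.4, per the submitters' processing notes, with roles, thresholds, duplicate treatment and use of input not given in the sources used here. The authors deposited 1 peak list per library: 3 columns (chromosome, start, end) for Hoxa13 and Hoxa11 replicate 1, and 10 narrowPeak columns for Hoxa11 replicate 2. There the deposited score is 10 times the deposited −log10 q-value, cut to a whole number, and the deposited fold enrichment is a ratio over the caller's background. Each value is the authors' own.

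Overlaps were computed in Python 3.11.15 with pandas 2.3.3 and scipy 1.17.1, tested on simulated lists and checked against bedtools 2.31.1. A site met both Hoxa11 replicates when it met a peak of each. With 1 library per Hoxa13 stage no test was run. The labels do not say whether the Hoxa11 replicates came from separate litters.

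The members, lists, dense windows and comparisons were chosen with earlier results of these data known. Named sites are the 5 highest, outside dense windows on chromosomes 1 to 19 and X, by Hoxa11 fold among sites with both replicates, by common share, by width, and by core sites per 1 Mb window. The Hox windows, and the sites in them, were added later. No genome or annotation of mm9 was at hand, so planned counts of motifs and of transcription starts were not run, and no sequence is shown.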

Additional observations from a re-analysis of the deposited data

How the results depend on the processing

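The number of core sites was 5444 under 50% reciprocal overlap, against 13767 by 1 bp, and stayed within 1.5 times under the other 6 alternatives. The share of core sites with Hoxa11 of both replicates, 2.13%, was 1.47% under 50% reciprocal overlap, 1.4% with centres within 100 bp, 1.79% without unplaced sequence and dense windows, and 2.77% with the widest peaks of each list. With 1 Hoxa11 list left out it ranged from 2.88% to 4.51%. The core minus the late-shared class, 0.0439 points, turned to -1.89 under 50% reciprocal overlap, -0.428 with centres within 100 bp, -0.118 without dense windows, -0.770 with the widest peaks, and -0.469, -0.362, -0.612 and -1.16 in 4 equal classes of E11.5 width from narrow to wide. It was -0.651 with these classes weighted equally and -0.776 with 10 classes, the last chosen after seeing the data. Of these negative values, -0.118 (-0.423 to 0.194), -0.469 (-0.862 to 0.142) and -0.362 (-0.799 to 0.285) had intervals that included 0. The difference kept its sign in 3 alternatives, also with intervals that included 0, and members from the E11.0 list give no such class. The cause of these turns was not tested. Median E11.5 width was 364.5 bp under 50% reciprocal overlap, 377 bp with centres within 100 bp and 433 bp with the widest peaks. The median distance from E11.0 to E11.5 was 38.0 bp at sites with 1 partner per stage. The share with a core neighbour, 17.8% within 10 kb, was 53.2% within 50 kb and 14.9% without dense windows. Sites wide at E12.5 minus sites wide at E11.0, 8.37 points in Hoxa11 of both replicates, was 7.54 without dense windows, 7.20 with 1 partner per stage, and from 7.69 to 15.5 with 1 Hoxa11 list left out, alternatives chosen after seeing the data.

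No paired analysis was possible because each Hoxa13 stage has 1 library. Depth and peak thresholds are unknown, so a site absent from a list is not shown to be unbound.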

Other observations

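Core sites also occurred in short runs. With centres at most 10 kb apart, 167 runs of 3 or more sites held 662 core sites, and 94 of these runs, with 304 sites, lay outside dense windows. Runs in the other classes are not given, so runs are not shown to be particular to the core. The run with most sites outside dense windows was on chromosome X from 123300094 to 123313074, where 9 core sites spanned 12981 bp and 1 of them met a Hoxa11 peak of each replicate. The window just before it, from 122000001 to 123000000, was dense with 26 core sites, so the run lies outside only by the window border. On chromosome 13, a run of 6 sites from 12915835 to 12934729 spanned 18895 bp and a run of 5 from 12945760 to 12964549 spanned 18790 bp. A run of 5 sites on chromosome 8 from 72087144 to 72106074 spanned 18931 bp. Hoxa11 replicate 1 met no site of this run or of the run of 6 on chromosome 13, and 1 site of the run of 5 there. It met 4.15% of all core sites outside dense windows, so runs this short cannot be told apart by Hoxa11. These runs were chosen after their values were seen, and repeated sequence was not screened there.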
